A study of Mus musculus with 24 samples.

Results

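The receptor genes of adrenomedullin and calcitonin gene-related peptide (CGRP) were described in LSK-SLAM cells, the Lin-Sca-1+c-Kit+CD48-CD150+ fraction of mouse bone marrow that is enriched for hematopoietic stem cells. The 6 members were chosen by their normalized read counts in young and old mice and were taken by gene symbol from a table of 18762 genes: *Calcrl*, *Ramp1*, *Ramp2*, *Ramp3*, *Adm* and *Vps25*. *Vps25* is no part of the receptor system and was included because its exons overlap those of *Ramp2*. The young group held 5 wild-type (WT) C57BL/6 mice of 4 to 5 months and the old group held 7 WT C57BL/6 mice of 20 to 22 months. These ages are those of the labels, and the text of the study gives somewhat higher ones. No treatment or engineered allele is labelled in either group. Ribosome-depleted RNA of 15000 sorted cells per mouse was sequenced, and the values are normalized read counts, which put each gene's reads on a scale shared by all mice. A letter, A or B, ends the name of each mouse and is not explained in the labels. Letter A was given to 2 young and 4 old mice, and letter B to 3 young and 3 old mice.

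Adrenomedullin and CGRP are related peptides that widen blood vessels, and adrenomedullin is also needed for the growth of blood and lymphatic vessels. Both act through the class B receptor encoded by *Calcrl*, which reaches the cell surface and gains its ligand preference by pairing with a receptor activity-modifying protein (RAMP). Pairing with RAMP1 gives the CGRP receptor, whereas pairing with RAMP2 or RAMP3 gives receptors for adrenomedullin. The occupied receptor signals mainly through the stimulatory G protein to cAMP. *Calcrl* and *Ramp2* are abundant in endothelium, and *Calcrl* is also known from hematopoietic stem cells.

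The reads recovered from the table summed to 861047 to 5118507 per mouse. Letter A libraries were shallower, with 861047 to 3106243 reads, than letter B libraries, with 3233516 to 5118507 reads. A count of 3 reads corresponded to a normalized read count of 0.583 to 3.69, depending on the mouse. The gene *Gm10800* alone took 7.18% to 18.6% of the reads in letter A and 1.6% to 8.44% in letter B libraries. The stem cell markers fixed for the sort (such as *Kit*, *Ly6a*, *Slamf1* and *Procr*) were found for 11 of 11 genes and had reads in every mouse. Nothing in the labels says more about the origin of the mice. Each SD below is the spread between mice, and each limma standard error rests on that spread, moderated over genes.

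Because *Ramp2* and *Vps25* share exons, their loci are described first. *Ramp2* (ENSMUSG00000001240) was annotated on the plus strand of chromosome 11 at chr11:101246028-101259546 in GRCm38. *Vps25* (ENSMUSG00000078656), which encodes a subunit of the endosomal sorting complex ESCRT-II, lay on the same strand at chr11:101253707-101259549. Most *Ramp2* transcripts ended ahead of *Vps25*, but the transcript Ramp2-203, annotated for nonsense-mediated decay, ran on through the exons of *Vps25*. Of the 3301 exon bases of *Ramp2*, 1103 were also exon bases of *Vps25* and 2198 were not, whereas 539 of the 1642 exon bases of *Vps25* were its own. The 60 bases at the junction of exons 2 and 3 are printed below for a coding *Ramp2* transcript and for the transcript that reads into *Vps25*, with the second exon in lower case and the third in capitals. They show the same second exon (chr11:101247115-101247144) joined to a *Ramp2* exon (chr11:101247586-101247615) or to an exon that begins ahead of *Vps25* (chr11:101253604-101253633). The first 30 coding bases of Vps25-202 (chr11:101253755-101253784) are given in capitals for comparison, because they are also contained in Ramp2-203, so that reads from them fit both genes.
Ramp2-204: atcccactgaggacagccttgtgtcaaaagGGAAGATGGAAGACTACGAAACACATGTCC
Ramp2-203: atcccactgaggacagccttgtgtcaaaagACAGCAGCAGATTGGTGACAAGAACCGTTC
Vps25-202: ATGGCGATGAGTTTCGAGTGGCCGTGGCAG

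**Figure D1:**
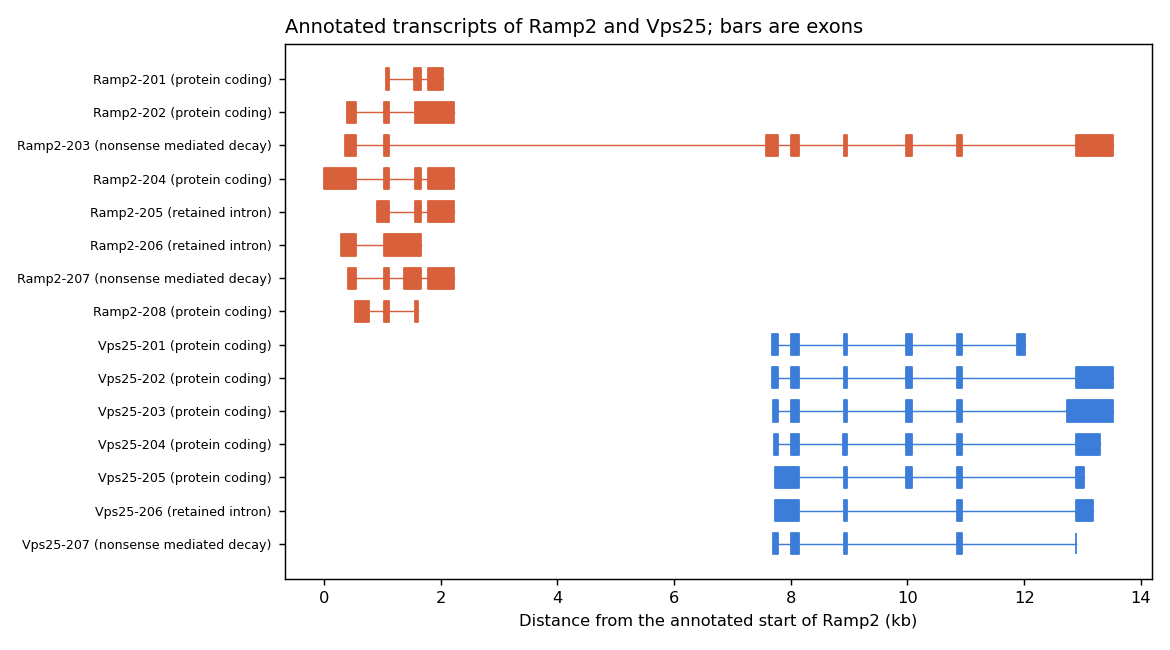
Annotated transcripts of *Ramp2* (orange) and *Vps25* (blue) by distance in kb from the start of *Ramp2*, with exons as bars and introns as lines. Ramp2-203 alone among the *Ramp2* transcripts reaches the exons of *Vps25*.

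The other members had little or no shared sequence. *Ramp1* (ENSMUSG00000034353; chr1:91179822-91225196, plus strand) shared no exon base with another annotated gene. *Ramp3* (ENSMUSG00000041046; chr11:6658521-6677475, plus strand) shared 101 exon bases with the antisense gene *Gm11978*, and since the sources do not say whether counting used strand, reads from these bases cannot be told apart. *Calcrl* (ENSMUSG00000059588; chr2:84330626-84425411, minus strand) had 0.325% of its 50-base words in common with other genes. *Adm* (ENSMUSG00000030790; chr7:110627661-110629820, plus strand) overlapped the span of *Gm28863* on the other strand but shared 0 exon bases with it.

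*Ramp2* was the member with the large difference between ages. Its normalized read count was 6.53, 11.1, 10.8, 2.35 and 8.81 in young mice 1 to 5. It was 40.2, 43.5, 64.6, 69.6, 43.4, 41.1 and 33.2 in old mice 1 to 7. The groups did not overlap, and 7 of 7 old mice lay above all young mice, with the lowest old mouse (33.2) well clear of the highest young mouse (11.1). The young mean was 7.91 ± 3.60 (SD, n = 5) and the old mean 48.0 ± 13.6 (SD, n = 7), a ratio of 6.06. On the log2(normalized read count + 1) scale the difference was 2.55 with a limma standard error (SE) of 0.34. These values rested on 12 to 55 reads in the young and 27 to 358 reads in the old libraries. The members were selected on this contrast, so the age differences of its members are given as a description without a test.

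For reference only, since the members were chosen on it, the fit between ages called 1 of the 4 members that reached a mean of 10 (*Ramp2*, higher in old), beside 0.105% of all 12354 genes tested (13 genes, limma with Benjamini-Hochberg adjustment), or 0.0971% counting only genes higher in old mice. An unadjusted limma p under 0.05 was reached by 3.95% of genes. Non-overlapping values with the higher level in old mice were found in 0.291% of genes. *Ramp3* and *Adm* did not reach the mean of 10. No reading was taken from these shares. In bulk RNA of sorted cells, a larger share of cells that express a gene and more RNA per cell cannot be told apart.

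**Figure D2:**
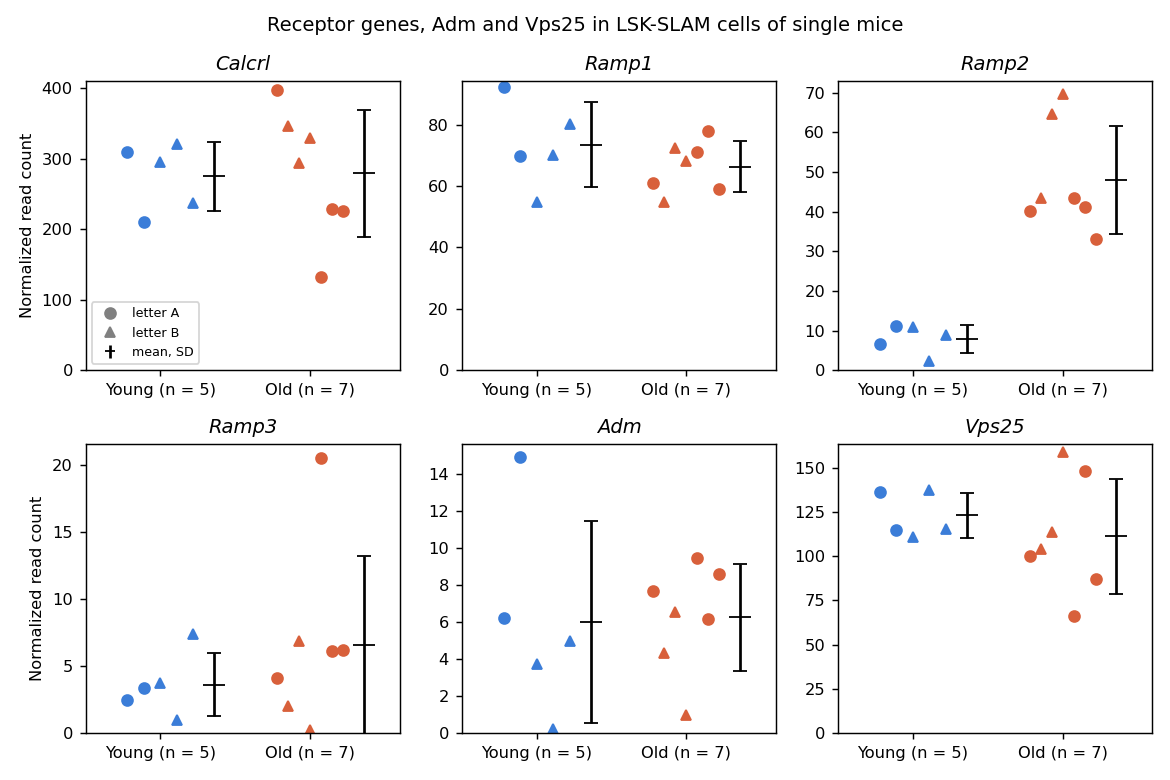
Normalized read count of each member in single young (blue, n = 5) and old (orange, n = 7) mice, with letter A as circles and letter B as triangles. Black marks give the mean with SD, cut off at 0 for *Ramp3*; in the *Ramp2* panel the old mice span 33.2 to 69.6 and the young mice 2.35 to 11.1.

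*Vps25* did not follow *Ramp2*. Its normalized read count was 137, 115, 111, 137 and 115 in young mice 1 to 5. It was 100, 104, 114, 159, 66.3, 148 and 87.3 in old mice 1 to 7. The old mice spread on both sides of the young mice, and the means were 123 ± 12.8 (SD, n = 5) and 111 ± 32.7 (SD, n = 7), with an old minus young difference of -0.19 (SE 0.20) on the log2 scale. As a share of the *Vps25* read count, *Ramp2* amounted to 6.69% ± 3.43 for young mice (SD, n = 5) and 44.8% ± 12.5 for old mice (SD, n = 7). In young mouse 4 the *Ramp2* value was lowest, at 1.71% of *Vps25*, while *Vps25* itself was 137, level with the highest young value. How the counting treated reads shared by both genes is not given in the sources used here.

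*Calcrl*, the receptor subunit common to both peptides, differed between ages by less than the spread between mice. Its normalized read count was 310, 211, 295, 321 and 237 in young mice 1 to 5. It was 397, 347, 294, 330, 133, 229 and 225 in old mice 1 to 7. The groups overlapped, with the 2 most extreme values, 133 and 397, both in old mice of letter A. The means were 275 ± 48.3 (SD, n = 5) and 279 ± 89.6 (SD, n = 7), and the log2 difference was -0.03 (SE 0.25), from 168 to 1697 reads per library.

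*Ramp1*, which completes the CGRP receptor, also differed by less than its spread. Its normalized read count was 92.4, 69.7, 54.9, 70.2 and 80.2 in young mice 1 to 5. It was 61.0, 54.9, 72.5, 68.0, 71.0, 77.9 and 59.0 in old mice 1 to 7. The ranges overlapped almost entirely, with means of 73.5 ± 13.9 (SD, n = 5) and 66.3 ± 8.25 (SD, n = 7). The log2 difference was -0.13 (SE 0.17).

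*Ramp3*, the second adrenomedullin-type RAMP, was near the detection limit. Its normalized read count was 2.49, 3.37, 3.73, 0.981 and 7.34 in young mice 1 to 5. It was 4.07, 2.02, 6.85, 0.194, 20.5, 6.14 and 6.15 in old mice 1 to 7. All values but 20.5 in old mouse 5 lay between 0.194 and 7.34, and each library held only 1 to 26 reads. The means were 3.58 ± 2.36 (SD, n = 5) and 6.56 ± 6.62 (SD, n = 7), and the log2 difference of 0.42 was smaller than its SE of 0.95.

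*Adm*, which encodes adrenomedullin itself, was as low, with 1 to 31 reads per library. Its normalized read count was 6.22, 14.9, 3.73, 0.196 and 4.99 in young mice 1 to 5. It was 7.68, 4.30, 6.53, 0.972, 9.47, 6.14 and 8.61 in old mice 1 to 7. No old mouse was outside the young values, and the log2 difference was 0.32 (SE 0.83).

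**Figure D3:**
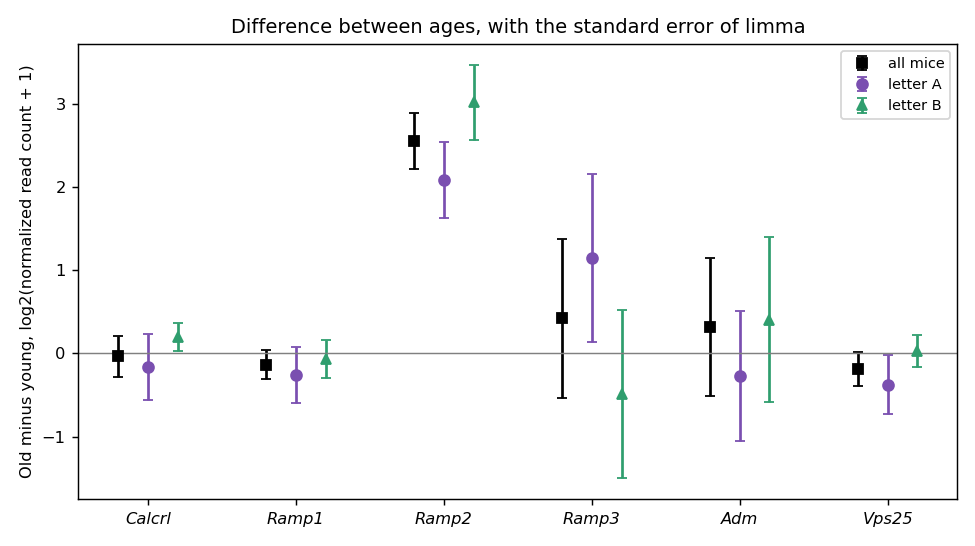
Old minus young difference of each member on the log2(normalized read count + 1) scale, with the limma SE, for all mice (squares), letter A (circles) and letter B (triangles). *Ramp2* lies at 2.55, 2.08 and 3.02, while the other members lie near 0 or have an SE of the size of the difference.

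The difference in *Ramp2* was seen within each label letter. In letter A mice it was 2.08 (SE 0.45), with young mice at 6.53 and 11.1 and old mice at 33.2 to 43.4. In letter B mice it was 3.02 (SE 0.45), with young mice at 2.35 to 10.8 and old mice at 43.5 to 69.6. All 3 old letter B mice were thus above all 4 old letter A mice, although the margin was only from 43.4 to 43.5. The interaction of age and letter for *Ramp2* was 0.94 (SE 0.64), with a limma Benjamini-Hochberg adjusted p of 0.9998 over all genes, so a difference between the letters in the size of the *Ramp2* change was not shown. Of the 4 tested members, 0 had an interaction at an adjusted p under 0.05 (limma; 0 also by edgeR and DESeq2, and 0 at an unadjusted limma p under 0.05), beside 0.0162% of all genes.

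The letter itself, which the choice of members did not use, was tested with age as a covariate. Across all genes it went with a wide difference, 36.1% of genes being called, 10.5% higher and 25.6% lower in letter B. Among the 4 tested members 0 were called by limma, edgeR or DESeq2, and 0 had an unadjusted limma p under 0.05. The B minus A difference on the log2 scale was 0.17 for *Ramp2* (SE 0.32, limma adjusted p = 0.711) and 0.35 for *Calcrl* (SE 0.21, limma adjusted p = 0.193). It was -0.13 for *Ramp1* (SE 0.18, limma adjusted p = 0.614) and 0.19 for *Vps25* (SE 0.19, limma adjusted p = 0.467). Rescaling by median ratios moved the median B minus A difference of all genes from -0.08 to 0.21, gave 3360 genes higher and 2541 lower in letter B in place of 1301 and 3161, turned *Ramp1* to 0.17, and brought *Calcrl* past the threshold at 0.65. With no minimum level, *Adm* was lower in letter B by a difference of -1.33 (limma adjusted p = 0.04999) and *Ramp3* gave -0.83 (limma adjusted p = 0.250). In this fit 4970 of 18275 genes were called lower in letter B. Both *Adm* and *Ramp3* are set beside background reads below.

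Levels were next compared between genes per kb of annotated exon. Averaged over 12 mice, *Vps25* stood at 70.8 normalized read counts per kb, *Calcrl* at 56.8, *Ramp1* at 22.9, *Ramp2* at 9.47, *Ramp3* at 3.86 and *Adm* at 3.80. *Calcrl* exceeded *Ramp1* in 12 of 12 mice, and *Ramp1* exceeded *Ramp2* in 12 of 12 mice. *Vps25* exceeded *Calcrl* in 10 of 12 mice and *Ramp2* exceeded *Ramp3* in 10 of 12. *Ramp3* and *Adm* were not separated, since *Ramp3* was the higher in 6 of 12 mice. The ranges over all mice overlapped for each neighbouring pair, and the order of *Ramp1* and *Ramp2* depended on the length given to *Ramp2*, as described with the RAMP pool. The comparison of *Vps25* with *Calcrl* used all 1642 exon bases of *Vps25*, of which 539 were its own. It was not repeated with the unshared bases alone.

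The composition of the RAMP pool differed between ages. *Ramp1* made up 83.1% ± 8.20 of the summed RAMP level per kb in young mice (SD, n = 5) and 53.8% ± 5.19 in old mice (SD, n = 7). *Ramp2* made up 8.31% ± 4.31 in young and 35.3% ± 7.99 in old mice, with old letter A mice at 25.5% to 34.5% and old letter B mice at 40.2% to 48.2%. *Ramp3* made up 8.64% ± 4.93 and 10.8% ± 9.02. The summed RAMP level was 29.3 ± 5.03 per kb in young and 41.2 ± 7.36 per kb in old mice. *Ramp2* per kb was 4.58% ± 2.55 of *Calcrl* in young and 27.7% ± 11.1 in old mice, and *Ramp1* was 44.3% ± 11.05 and 43.9% ± 21.5 of *Calcrl*. When only the 2198 unshared bases of *Ramp2* were taken as its length, its level reached 21.8 ± 6.19 per kb in old mice, and it exceeded *Ramp1* in 3 of 7 old mice, all 3 of letter B. These shares follow from the same counts that chose the members and are a description.

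Olfactory receptor (*Olfr*) genes, which blood stem cells are not known to use, gave a measure of background reads in each mouse. This list was chosen after the data had been seen. The mean of 1099 *Olfr* genes was 2.07 ± 1.07 per kb for the young mice (SD, n = 5) and 2.94 ± 1.93 per kb for the old (SD, n = 7), and it was higher in letter A (2.51 to 5.69) than in letter B (0.576 to 2.27). *Ramp2* in the young mice lay at 2.40 per kb, between 0.713 and 3.35, and was above the 95th percentile of *Olfr* genes in 1 of 5 young mice. In the other 4 its level was one that the lower 95% of *Olfr* genes also reached. In old mice *Ramp2* lay at 14.5 per kb and exceeded the 95th percentile in 6 of 7 mice, the exception being old mouse 7 at 10.1 per kb beside 11.8. In the 3 old letter B mice, where the background was lowest, *Ramp2* lay above 100% of *Olfr* genes and was 9.71, 12.1 and 36.6 times their mean. *Ramp1* and *Calcrl* were far above this background, *Ramp1* exceeding the 95th percentile in 12 of 12 mice. *Ramp3* exceeded it in 1 of 5 young and 2 of 7 old mice, and *Adm* in 1 of 5 and 0 of 7. No background was subtracted from the ratio of 6.06 for *Ramp2*, the RAMP pool shares or the ratios to *Calcrl* given above. The shares of *Ramp2* in young mice and of *Ramp3* at both ages may thus hold background reads. The part of background in the difference of these shares between the letters was not tested. *Adm* was at 5.46 per kb in letter A and 2.13 in letter B, beside *Olfr* means of 3.84 and 1.31. The part of background in this letter difference of *Adm* was not tested.

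**Figure D4:**
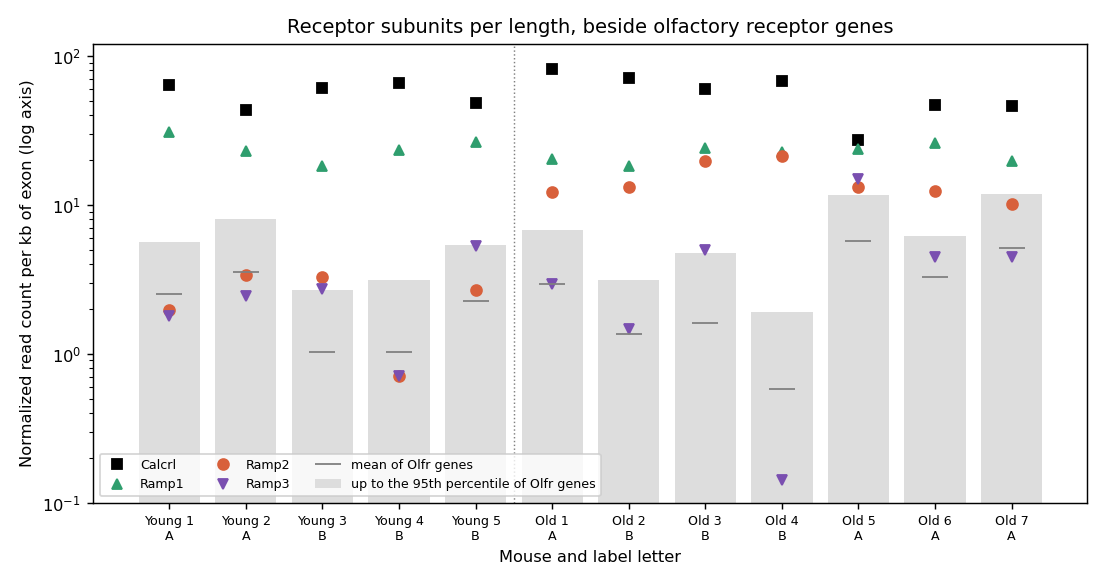
Normalized read count per kb of exon (log axis) of *Calcrl*, *Ramp1*, *Ramp2* and *Ramp3* in each mouse, over grey bars that reach up to the 95th percentile of 1099 *Olfr* genes, with their mean as a dash. *Ramp2* is inside or close to the grey bars in young mice and above them in 6 of 7 old mice.

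The rest of the pathway was read from lists of genes that bind, make, break down or signal for these peptides. Of 79 listed symbols 66 were in the table and 61 were tested, and 0 were called between ages by limma, edgeR or DESeq2 (2 had an unadjusted limma p under 0.05). Their median old minus young difference was -0.02, as for all genes tested (-0.02), and 28 of 61 were higher in old mice. In letter B mice alone 2 were called, *Pam* and *Pde3b*, beside 0.809% of all genes (100 genes). Without old mice 5 and 7, the shallowest of the old libraries, 1 was called, *Pam*, beside 0.397% of all genes (49 genes). Between the letters, with age as a covariate, 30 of the 61 were called, 11 of them higher in letter B, beside 36.1% of all genes.

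Other receptors and ligands were scarce. *Calcr*, the calcitonin receptor that pairs with RAMPs to bind amylin, was at 12.9 ± 8.27 in young and 18.2 ± 11.999 in old mice. *Gpr182*, a scavenging receptor once taken for an adrenomedullin receptor, was at 15.1 ± 10.2 and 16.3 ± 14.6. Over all mice, *Calcr* lay above 97.5% and *Gpr182* above 96.9% of *Olfr* genes per kb, so inside their range. Both were lower in letter B, by -1.88 for *Calcr* (limma adjusted p = 0.00954) and -2.17 for *Gpr182* (limma adjusted p = 0.000528). *Crcp*, the CGRP receptor component, was better expressed per length (23.1 per kb) at 36.1 ± 8.39 and 36.9 ± 15.6. Of the ligand genes other than *Adm*, *Calca*, which encodes calcitonin and CGRP, was at 5.78 ± 2.11 and 9.91 ± 9.12, *Calcb* at 2.59 ± 1.41 and 6.60 ± 7.54, and *Iapp*, which encodes amylin, at 3.46 ± 3.31 and 2.59 ± 5.20. None of these 3 reached the minimum for a test. The list of receptor subunits had 0 of 4 genes called and a median log2 difference of -0.02.

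Peptide handling genes were well expressed in part. *Pam*, whose enzyme amidates the C terminus of adrenomedullin and CGRP, had the largest difference of its list, at 91.1 ± 22.8 in young and 147 ± 52.1 in old mice (log2 difference 0.62, SE 0.27, limma adjusted p = 0.9997). Its old values ran from 60.0 to 212 and overlapped the young values of 67.8 to 123. *Ide*, the insulin-degrading enzyme, was at 226 ± 47.2 and 203 ± 72.9, and *Ece1*, an endothelin-converting protease, was at 141 ± 23.4 and 167 ± 56.0. In this list 0 of 5 genes were called, with a median log2 difference of 0.18.

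Of the signalling genes downstream of the receptor, 7 of 8 G proteins, arrestins and receptor kinases and 7 of 12 cyclases, cAMP sensors and kinases lay above all *Olfr* genes per kb. The receptor kinase gene *Grk5* (3.12 per kb, above 79.8% of *Olfr* genes) and the cyclase gene *Adcy1* (3.36 per kb, above 86.7%) were among those that did not. *Gnas*, which encodes the stimulatory G protein subunit, was at 400 ± 105 in young and 375 ± 130 in old mice, the inhibitory subunit gene *Gnai2* at 461 ± 86.8 and 455 ± 140, and the arrestin gene *Arrb1* at 258 ± 49.0 and 260 ± 59.8. *Arrb2* had the largest difference among G proteins, arrestins and receptor kinases (-0.27, SE 0.25), a list with 0 of 8 called and a median of -0.12. Of the cyclases, cAMP sensors and kinases, the protein kinase A genes *Prkacb* (449 ± 68.2 and 433 ± 141), *Prkar2b* (251 ± 59.0 and 265 ± 70.5) and *Prkar1a* (212 ± 46.6 and 200 ± 63.7) were highest. The cAMP-binding exchange factor gene *Rapgef4* differed most, by 0.32 (SE 0.24), and 0 of 12 genes were called, with a median of 0.08.

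Among the cAMP phosphodiesterases, which end the signal, 0 of 8 were called and the median was 0.03. *Pde3b* was at 80.2 ± 6.81 in young and 119 ± 25.2 in old mice, a log2 difference of 0.55 (SE 0.17, limma adjusted p = 0.709). *Pde4b* was at 200 ± 45.9 and 197 ± 28.3, *Pde4d* at 96.1 ± 19.7 and 97.8 ± 23.3, and *Pde3a*, with the largest difference of the list (0.75, SE 0.47), at 30.8 ± 24.1 and 50.8 ± 37.7. The CREB factors and cAMP response genes had 0 of 13 called and a median of -0.02. Their most abundant members were *Crebbp* (400 ± 91.6 and 424 ± 151), *Dusp1* (268 ± 109 and 236 ± 133) and *Creb1* (254 ± 66.8 and 239 ± 63.5), and *Nr4a3* differed most (-0.35, SE 0.61). Of the other class B receptors that can pair with RAMPs, 0 of 11 were called and the median was -0.05. *Vipr2*, a receptor for vasoactive intestinal peptide, was highest at 74.0 ± 18.5 and 74.7 ± 17.2, followed by *Adcyap1r1* (27.4 ± 16.0 and 29.97 ± 15.1) and *Glp2r* (15.9 ± 9.54 and 19.6 ± 9.97), and *Crhr2* differed most (-0.41, SE 0.53). Several of these genes were within the range of *Olfr* genes per kb. *Pde3a* lay above 85.9% of *Olfr* genes, *Nr4a3* above 83.1%, *Glp2r* above 79.0% and *Crhr2* above 42.4%. Of the 13 class B receptors in the table, 1 lay above all *Olfr* genes.

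**Figure D5:**
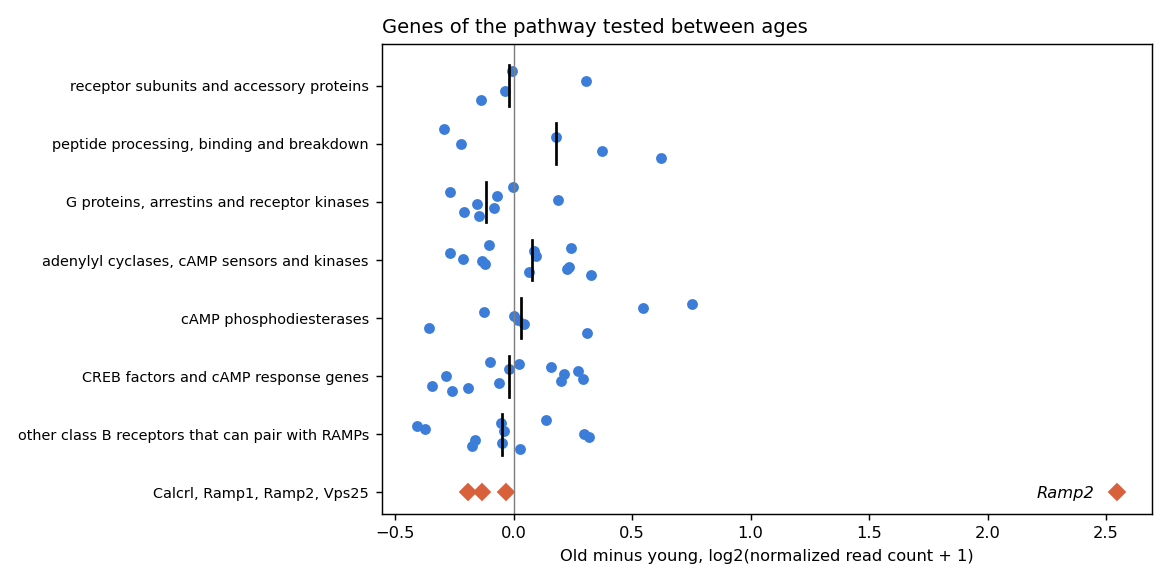
Old minus young difference on the log2(normalized read count + 1) scale of the 61 tested pathway genes (blue points, 1 row per list, black line at the list's median) and of the 4 tested members (orange diamonds). The pathway genes lie between -0.41 and 0.75, and *Ramp2* lies at 2.55.

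The genes most like *Ramp2* over the 12 mice were found by Pearson's r of log2 values among 12354 genes, as a description in which age, depth and letter are shared by the points. Without centring these were *Lsr* (r = 0.964), *Plscr2* (0.924), *Osmr* (0.922), *Mab21l2* (0.897) and *Phactr1* (0.896). *Osmr*, the oncostatin M receptor gene, was at 21.1 ± 3.42 in young and 69.2 ± 19.5 in old mice, and *Lsr*, a lipoprotein receptor gene, at 24.7 ± 6.61 and 42.7 ± 6.08. After the mean of each age and letter had been taken off, the closest were *Asb16* (0.942), *Bax* (0.937), *Lsr* (0.930), *Porcn* (0.923) and *Adgrl1* (0.918), so *Lsr* alone was in both lists of 5. The young *Ramp2* values behind this ranking rested on 12 to 55 reads, with young mouse 4 lowest at 2.35 (12 reads). The part of counting noise in the ranking was not tested. Without centring, r with *Ramp2* was -0.07 for its receptor partner *Calcrl*, -0.30 for *Ramp1* and -0.24 for the overlapping gene *Vps25*. After centring on age and letter, r was -0.30 for *Calcrl*, -0.09 for *Ramp1* and -0.15 for *Vps25*.

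Since *Ramp2* and *Calcrl* are abundant in endothelium, markers of other cell types were set beside these values. Of 10 defining endothelial markers 8 were in the table, 6 were tested and 0 were called between ages, with a median log2 difference of 0.00. Their summed level was 135 to 297 in young and 94.3 to 354 in old mice, with 94.3 to 202 in the 3 old letter B mice, whose *Ramp2* was 43.5 to 69.6, and 135 to 140 in the 3 young letter B mice, whose *Ramp2* was 2.35 to 10.8. The vascular receptor gene *Kdr* was at 48.7 in young and 67.3 in old mice (log2 difference 0.47), *Cdh5* at 15.7 and 16.1, and *Flt1* at 37.2 and 41.2. Of these 8 markers, 4 did not exceed 95% of *Olfr* genes per kb and 2 (*Kdr* and *Sox18*) lay above all of them. Endothelial genes that stem cells also express (0 of 7 called, median -0.01) did not share a direction, with *Vwf* at 285 in young and 501 in old mice (log2 difference 0.77), *Emcn* at 52.6 and 33.4 (-0.70), *Tie1* at 266 and 257 (-0.11) and *Eng* at 319 and 301 (-0.23).

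Markers of mature blood cells varied more. The neutrophil and monocyte list had 0 of 10 called and a median of 0.46, with 9 of 10 genes higher in old mice, and its summed level was 318 to 1067 in the young group and 274 to 4558 in the old group. In letter B mice alone the sums went the other way, at 387 to 1067 in young and 274 to 297 in old mice. *Ltf*, a gene of this list, had an age by letter interaction of -3.85 (limma adjusted p = 0.0235). The erythroid list had 0 of 9 called and a median of 0.42, with sums of 139 to 320 and 109 to 1080, and of 139 to 320 and 109 to 248 in letter B alone. The highest sums of both lists were in old mouse 6, whose *Ramp2* value of 41.1 was inside the range of the other old mice. No gene was called in the lists for megakaryocytes and platelets (5 tested, median 0.09), B cells (4 tested, 0.08), T and NK cells (3 tested, -0.13), marrow stroma (6 tested, 0.00) or the LSK-SLAM markers (11 tested, -0.05). Over all marker lists, 3 genes had an unadjusted limma p under 0.05 and did not pass the adjustment. These were *Vwf* and *Emcn*, given above, and the platelet factor gene *Pf4*, at 41.0 in young and 14.6 in old mice (log2 difference -1.33). The part of these other cells in the *Ramp2* difference was not tested.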

How the data were processed

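Bone marrow LSK-SLAM cells of 12 mice (24 labelled samples, 2 per mouse, given as 1 column per mouse in the table) were profiled by RNA-seq from 300 pg of ribosome-depleted RNA. The deposited values are a normalized signal, which the authors made with edgeR 3.24.3 after alignment with STAR 2.5.4b to mm10 (submitters' processing notes). The counting tool and annotation are not given in the sources used here. Dividing each column by its step (the value of 1 read) gave whole numbers for 100% of values (tolerance 0.001), taken as the recovered reads. No molecular identifiers are described, so the floor of 3 reads covers counting error only.

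Differences were fitted on log2(normalized read count + 1) with limma 3.58.1 (trend) in R 4.3.3 for genes with a mean of at least 10 (12354 of 18762), with Benjamini-Hochberg adjustment over all of them and a threshold of 0.05. A fold on this scale understates the change of low genes. *Ramp3* and *Adm*, under the minimum, were added to that fit for their values. Letter was fitted with age, and then with their product. Alternatives were other pseudocounts, minimum levels, scalings, edgeR 4.0.16, DESeq2 1.42.0, subsets by letter and each mouse left out. The fits were tested on simulated data. Lengths and sequences came from GENCODE vM21 (GRCm38), which held 18745 of the 18762 gene identifiers. The genes named were all members, the 3 most abundant genes of each pathway list and the 1 with the largest difference, and the 5 most like *Ramp2* by each measure, beside markers of other cells. Members and lists were chosen with earlier results of these data known. The labels do not say whether mice were littermates. Each limma p-value sets a difference against the spread between these mice, moderated over genes.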

Additional observations from a re-analysis of the deposited data

Results flagged for a closer look

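In groups of 5 young or 7 old mice, a mouse was singled out where its gap to the nearest other mouse took up more of the group's range than Dixon's 95% critical value. This held for 9 of 106 groups examined, where chance alone gives about 5.3. *Ramp3* was 20.5 in old mouse 5, beside 0.194 to 6.85 in the other old mice, and *Iapp* was 14.2 in the same mouse, beside 0 to 2.53. In young mouse 2, *Prkar2b* was 147 (others 270 to 293), *Pde4b* 119 (others 208 to 230.5) and *Vipr2* 41.8 (others 74.7 to 85.5). The summed megakaryocyte and platelet markers were 296 in young mouse 5 (others 193 to 213), and its neutrophil and monocyte markers were 1067 (others 318 to 505). In old mouse 6 the neutrophil and monocyte markers were 4558 (others 274 to 1346) and the erythroid markers 1080 (others 109 to 501). *Ramp2* was singled out in no mouse.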

How the results depend on the processing

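The *Ramp2* difference between ages ran from 2.05 (pseudocount 5) to 3.02 (letter B alone) over 29 alternatives, and from 2.23 to 2.69 with each mouse left out. Its sign is no support, because the groups did not overlap and no pseudocount or subset of mice could turn it. The member was also chosen on this contrast. For reference only, *Ramp2* was not called in letter A alone. *Ramp1* stayed between -0.26 and -0.05, *Calcrl* between -0.16 and 0.21, and *Vps25* between -0.37 and 0.03. *Ramp3* ranged from -0.49 to 1.15 and *Adm* from -0.27 to 0.72, so neither had a direction.

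The number of genes called between ages, 13, was 2 without the trend, 5 after median-ratio scaling, 5 after TMM scaling, 18 by edgeR's quasi-likelihood test, 41 by its likelihood-ratio test and 46 by DESeq2. It was 37 with letter as a covariate, 1 in letter A alone, 100 in letter B alone and 3 to 32 with each mouse left out, the 32 being without old mouse 5. Without old mice 5 and 7 (chosen after seeing the data) it was 49. The cause was not tested. Of pathway genes 2 were called in letter B alone and 1 without old mice 5 and 7.

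For the letter, 1 of 6 members was called with a minimum mean of 1 (*Adm*), beside 6522 of all 17647 genes tested. With no minimum it was 1 of 6 (*Adm*), beside 6300 of 18275 genes. After median-ratio scaling it was 1 of 4 (*Calcrl*, 0.65), beside 5901 of 12354 genes. *Ramp1* turned from -0.13 to 0.17 after median-ratio scaling and to 0.030 after TMM scaling, and its interaction of 0.20 ran from -0.0035 (without young mouse 1) to 0.40 (without young mouse 2) with each mouse left out. Replicate numbers 1 to 5 occur at both ages. Same-numbered mice deviated from their age means with a correlation of -0.559 to 0.615, and 2 of 5 young mice matched their own number best. The letter was not taken off. The lowest of these pairs (number 2) joined letters A and B, and the highest (number 4) was within letter B. Whether the numbers pair the mice thus cannot be told from these correlations. With replicate number as a block 19 genes were called, beside 8 without the block in the same mice, and *Ramp2* was 2.68 in both fits. Depth limits *Ramp3* and *Adm* (1 to 31 reads) most.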
